A study of Homo sapiens with 12 samples.

Results

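The autophagy genes described here are 42 protein-coding genes chosen by name, out of 57820 genes listed in each deposited table. They are the factors that start the autophagosome, the enzymes that attach ATG8 proteins to it, the ATG8 proteins themselves, receptors that bring cargo to it and 1 factor of its fusion with the lysosome. All 42 matched a gene by symbol, and all 42 passed the filter on low counts in every comparison.

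Autophagy encloses cytoplasm, protein aggregates or organelles in a double membrane and delivers them to the lysosome. The kinases ULK1 and ULK2, held back by mTORC1 and activated by AMPK, start the process, and a lipid kinase complex of PIK3C3 and BECN1 marks the growing membrane with PI3P. An ATG12-ATG5-ATG16L1 complex then couples ATG8 proteins such as LC3B (MAP1LC3B) to lipid, and cargo receptors such as p62 (SQSTM1) bind them. BECN1 has long been studied as a tumour suppressor in breast tissue. Many of these proteins are controlled by phosphorylation and turnover, which RNA levels do not show.

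RNA came from T47D-MTVL, a line derived from the hormone-responsive breast cancer line T47D that carries a luciferase reporter under the MMTV promoter, grown in charcoal-treated serum and not given progestin. Each of the 6 groups had 2 libraries. In the first pair, cells received an siRNA against PADI2 (siPADI2), a peptidylarginine deiminase that turns arginine into citrulline, or a control siRNA (siCtrl), and poly(A) RNA was sequenced. In the second pair, also of poly(A) RNA, the labels give cells that express a toxin-resistant RNA polymerase II (RNAP2) with an HA tag, either with alanine in place of an arginine of its C-terminal tail (R1810A) or wild type (WT). Both RNAP2 groups had 24 hours of expression and then 12 hours in 6 µg/ml alpha-amanitin, the toxin in question, which blocks the RNAP2 of the cells themselves, so these controls carried the transgene and the toxin too. RNA bound to chromatin was taken after siPADI2 and after siCtrl. Nothing in the labels tells whether both libraries of a group stem from separate cultures, and p-values therefore reflect only how far these libraries spread, which may be technical. In RNA of whole cultures, fewer cells with a transcript and less transcript per cell cannot be told apart.

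Total counts were 44318629 to 132764704 in the poly(A) libraries, and in the chromatin set 2798723 and 2720080 in siPADI2 and 7040541 and 6667627 in siCtrl. The 42 genes had 348 to 136904 counts in single poly(A) libraries and 11 to 1540 in chromatin libraries. PADI2 RNA was 1.83 and 1.88 counts per 1000000 (CPM) in siPADI2 poly(A) libraries, against 24.0 and 22.6 CPM in siCtrl libraries. It was also lower in the libraries labelled R1810A, at 3.13 and 2.35 CPM against 48.9 and 50.7 CPM in WT libraries, although no label names an siRNA there. The low PADI2 RNA and the RNAP2 form cannot be told apart as sources of any difference from WT. All 7 luminal markers searched (such as ESR1, 66.7 to 213.1 CPM, and KRT8, 1371 to 2597 CPM) were present in poly(A) RNA. Their levels differed between groups: ESR1, PGR, GATA3 and KRT8 were called lower in siPADI2 and in R1810A, and EPCAM higher in both. FOXA1 was called lower in siPADI2 only and KRT18 in R1810A only. Of the markers of other cells, KRT5, KRT14, PTPRC, COL1A2 and PDGFRB were at most 0.0691 CPM in poly(A) RNA, CD14 at most 0.241 CPM, and COL1A1 at 43.1 to 72.8 CPM.

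After PADI2 knockdown, the autophagy genes in poly(A) RNA moved in both directions: initiation kinases and some cargo receptors rose, while BECN1, 2 ATG8 genes and the mitophagy receptors BNIP3 and FUNDC1 fell. Of the 42 genes, 17 were higher and 9 lower in siPADI2 (adjusted p under 0.05), and 16 did not pass. That is 61.9% of them, beside 56.7% of all 18720 genes tested, so the share called was near the background. Over all genes 28.8% were higher and 27.9% lower. The 2 groups did not overlap in CPM for 33 of the 42 genes, beside 76.5% of all genes. The median log2 fold change of the 42 genes was 0.10, against 0.0050 over all genes tested. Only RETREG1, ULK1, BNIP3 and BECN1 were called with a change of at least 2-fold, a size reached by 16.8% of all genes. No member was lost from these calls with DESeq2. With total counts in place of TMM scaling, the median of all genes moved to 0.19, and 24 members were higher and 7 lower.

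**Figure D1:**
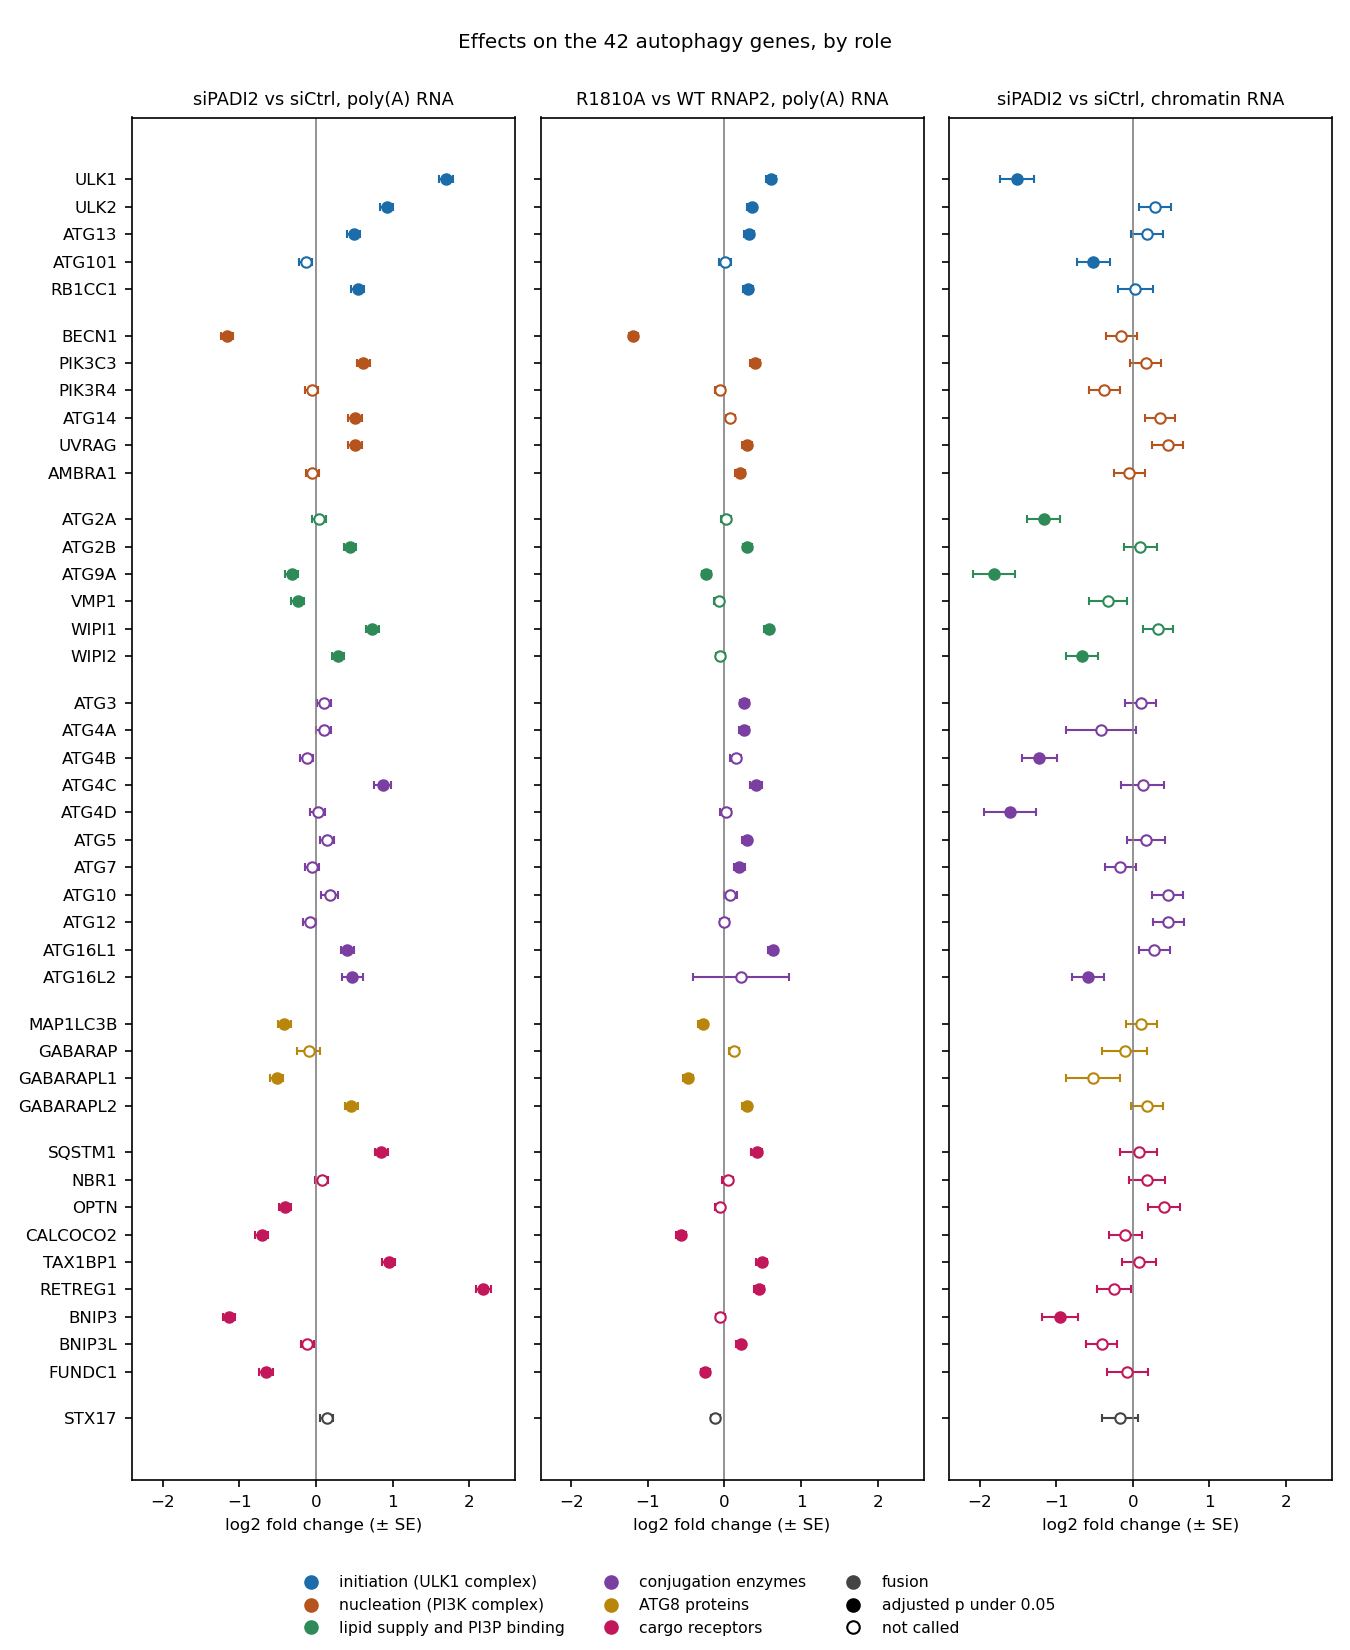
Log2 fold change ± SE of each of the 42 autophagy genes, grouped by role down the page, in the 3 comparisons (2 libraries per group). Filled points passed an adjusted p of 0.05. In poly(A) RNA filled points lie on both sides of 0, whereas in chromatin RNA all 9 filled points lie below 0.

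The promoters of the 4 members with the largest changes are shown from RefSeq (GRCh38.p14), 250 bases before and 50 after the annotated start, because these genes moved in opposite directions. Letters in capitals mark an E-box (CACGTG, the core site of MITF/TFE factors such as TFEB), a core of the hypoxia response element (ACGTG, which also lies within the E-box), a GC box (GGGCGG) or a CCAAT box, each on either strand. RETREG1 has 2 annotated promoters, and the gene count sums transcripts from both.
RETREG1 upstream promoter, chr5:16616948-16617247, minus strand: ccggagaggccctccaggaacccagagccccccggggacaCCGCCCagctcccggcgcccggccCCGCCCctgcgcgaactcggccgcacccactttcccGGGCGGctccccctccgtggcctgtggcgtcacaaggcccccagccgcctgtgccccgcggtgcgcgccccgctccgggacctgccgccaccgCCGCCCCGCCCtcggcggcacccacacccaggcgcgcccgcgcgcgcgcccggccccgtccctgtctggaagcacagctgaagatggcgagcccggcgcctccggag
RETREG1 downstream promoter, chr5:16508949-16509248, minus strand: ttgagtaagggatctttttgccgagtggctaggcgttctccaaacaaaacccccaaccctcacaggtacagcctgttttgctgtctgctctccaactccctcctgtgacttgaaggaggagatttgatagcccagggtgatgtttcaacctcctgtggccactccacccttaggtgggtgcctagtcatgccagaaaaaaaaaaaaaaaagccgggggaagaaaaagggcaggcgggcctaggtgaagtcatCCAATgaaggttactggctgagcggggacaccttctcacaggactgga
ULK1 promoter, chr12:131894372-131894671, plus strand: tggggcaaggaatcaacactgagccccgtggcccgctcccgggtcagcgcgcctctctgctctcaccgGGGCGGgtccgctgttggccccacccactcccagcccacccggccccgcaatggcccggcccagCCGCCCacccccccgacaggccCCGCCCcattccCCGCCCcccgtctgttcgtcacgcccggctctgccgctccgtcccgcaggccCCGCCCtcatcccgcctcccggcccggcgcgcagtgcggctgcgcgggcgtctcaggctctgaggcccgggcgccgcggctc
BNIP3 promoter, chr10:131981874-131982173, minus strand: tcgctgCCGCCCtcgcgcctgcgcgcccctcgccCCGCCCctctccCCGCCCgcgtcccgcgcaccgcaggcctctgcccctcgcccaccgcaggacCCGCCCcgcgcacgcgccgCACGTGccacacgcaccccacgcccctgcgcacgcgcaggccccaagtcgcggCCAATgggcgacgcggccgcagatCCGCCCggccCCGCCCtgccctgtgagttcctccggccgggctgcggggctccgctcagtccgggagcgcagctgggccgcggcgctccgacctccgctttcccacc
BECN1 promoter, chr17:42823830-42824129, minus strand: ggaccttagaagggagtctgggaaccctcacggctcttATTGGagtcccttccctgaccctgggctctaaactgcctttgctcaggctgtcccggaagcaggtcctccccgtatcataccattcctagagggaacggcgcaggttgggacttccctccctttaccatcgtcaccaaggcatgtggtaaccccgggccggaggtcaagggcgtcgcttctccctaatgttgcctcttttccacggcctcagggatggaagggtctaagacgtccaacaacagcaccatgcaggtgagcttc
The E-box occurs in 7.26%, the hypoxia core in 21.4%, the GC box in 45.0% and the CCAAT box in 34.6% of the 35116 promoters of this length in the table. The 37 members matched there have 46 promoters, of which 3 held an E-box, 13 the hypoxia core, 31 a GC box and 15 a CCAAT box. Among the promoters printed, BNIP3, a gene known to be induced in hypoxia, held the E-box, 1 CCAAT box and 6 GC boxes. ULK1 and the upstream promoter of RETREG1 held 5 GC boxes each, so GC boxes occurred in genes that rose and in one that fell. BECN1 and the downstream RETREG1 promoter held 1 CCAAT box each and none of the other letters searched.

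RETREG1 (FAM134B; ENSG00000154153.9, hg19 chr5:16473147-16617167, minus strand), the receptor that brings endoplasmic reticulum to autophagosomes, had the largest change. It stood at 63.1 and 63.6 CPM in siPADI2 libraries, against 13.2 and 14.5 CPM in siCtrl libraries. Both siPADI2 libraries lay far above both siCtrl libraries (log2 fold change 2.18 ± 0.10 SE, 4.54-fold, adjusted p = 1.07e-21).

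The ULK1 complex, which starts the autophagosome, had 4 of 5 genes higher and none lower, beside 28.8% of all genes higher. ULK1, its kinase (ENSG00000177169.5, hg19 chr12:132379196-132407712, plus strand), was at 295.3 and 260.0 CPM in siPADI2 libraries, against 94.5 and 77.3 CPM in siCtrl libraries. The groups were far apart (log2 fold change 1.70 ± 0.09 SE, adjusted p = 7.95e-16). Its paralog ULK2 was at 75.2 and 73.0 CPM in siPADI2 libraries and 38.2 and 39.8 CPM in siCtrl libraries (log2 fold change 0.92 ± 0.09 SE, adjusted p = 4.53e-12). The scaffold genes RB1CC1 (FIP200) and ATG13 rose by 0.54 and 0.49 on the log2 scale. ATG101, which stabilises ATG13, was at −0.14 and did not pass (adjusted p = 0.17).

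In the lipid kinase complex, the catalytic subunit and its regulator BECN1 changed in opposite directions. BECN1 (ENSG00000126581.8, hg19 chr17:40962152-40985367, minus strand) was at 58.9 and 62.2 CPM in siPADI2 libraries, against 135.8 and 135.5 CPM in siCtrl libraries. Its replicates differed little within either group, and the groups did not overlap (log2 fold change −1.16 ± 0.08 SE, adjusted p = 3.11e-15). PIK3C3, the kinase itself, was at 68.2 and 68.9 CPM in siPADI2 libraries and 44.6 and 45.0 CPM in siCtrl libraries (log2 fold change 0.61 ± 0.08 SE, adjusted p = 6.17e-08). ATG14 and UVRAG, which direct the complex to autophagosomes and to endosomes, rose by 0.50 and 0.51. PIK3R4, the scaffold subunit, and AMBRA1, which binds BECN1, had overlapping groups and did not pass.

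Of the 6 genes that supply lipid or read PI3P, 3 were higher and 2 lower, beside 28.8% and 27.9% of all genes. WIPI1, a PI3P reader often used as a transcript marker of autophagy, was at 155.1 and 147.3 CPM in siPADI2 libraries and 90.9 CPM in both siCtrl libraries (log2 fold change 0.73 ± 0.08 SE, adjusted p = 6.24e-10). The lipid transfer gene ATG2B rose by 0.45 and WIPI2, which recruits ATG16L1, by 0.29. ATG9A, the scramblase of the vesicles that seed the membrane, fell by 0.32, and the scramblase VMP1 fell by 0.24 (adjusted p = 0.013). VMP1 lost its call without siCtrl replicate 2 (−0.19, adjusted p = 0.094) and without siPADI2 replicate 2 (−0.22, adjusted p = 0.11), and ATG9A did so without siPADI2 replicate 2 (−0.28, adjusted p = 0.054). ATG9A shares 34.9% of its exonic bases with ABCB6 on the same strand, so its count is uncertain. ATG2A had overlapping groups.

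Of the 11 conjugation enzymes, 3 were higher (27.3%) and none lower, beside 28.8% and 27.9% of all genes. ATG4C, a protease that processes ATG8 proteins, was at 17.1 and 15.3 CPM in siPADI2 libraries and 8.35 and 9.28 CPM in siCtrl libraries (log2 fold change 0.87 ± 0.11 SE, adjusted p = 1.41e-08). ATG16L1 and its paralog ATG16L2 rose by 0.41 and 0.48. The call of ATG16L2 was lost without siCtrl replicate 2 (0.31, adjusted p = 0.097) and without siPADI2 replicate 2 (0.24, adjusted p = 0.18). The core enzymes did not pass: ATG5 was at 0.14 ± 0.09 and ATG7, the E1-like enzyme, at −0.05 ± 0.09 on the log2 scale. The value of ATG5 was 0.27 without siCtrl replicate 2, and with total counts in place of TMM ATG5 was called. The 8 genes of this group that were not called ranged over −0.12 to 0.18.

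The 4 ATG8 genes split by paralog. MAP1LC3B was at 129.0 and 133.3 CPM in siPADI2 libraries, against 162.1 and 186.8 CPM in siCtrl libraries (log2 fold change −0.41 ± 0.08 SE, adjusted p = 7.10e-05). GABARAPL1 fell by 0.52, GABARAPL2 (GATE-16) rose by 0.46, and GABARAP had overlapping groups. GABARAP shares 30.5% of its exonic bases with another gene on the same strand, and MAP1LC3B and GABARAPL1 have near-identical copies, whose summed counts were at most 41 and 1 in a poly(A) library and 72 and 36 in a chromatin library.

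Of 9 cargo receptors, 3 rose (33.3%) and 4 fell (44.4%), beside 28.8% and 27.9% of all genes. SQSTM1 was at 1067 and 999.5 CPM in siPADI2 libraries, against 588.3 and 557.3 CPM in siCtrl libraries (log2 fold change 0.85 ± 0.09 SE, adjusted p = 9.24e-11). TAX1BP1, a receptor for ubiquitinated cargo, was at 345.6 and 353.3 CPM in siPADI2 libraries and 172.0 and 189.4 CPM in siCtrl libraries (log2 fold change 0.95 ± 0.09 SE, adjusted p = 1.97e-12). Its relative CALCOCO2 (NDP52) fell by 0.71 and OPTN by 0.41, so receptors of ubiquitinated cargo were found on both sides. The mitophagy receptor BNIP3 (ENSG00000176171.7, hg19 chr10:133781578-133795435, minus strand) was at 58.6 and 55.8 CPM in siPADI2 libraries, against 120.8 and 130.6 CPM in siCtrl libraries (log2 fold change −1.14 ± 0.08 SE, adjusted p = 8.82e-15). FUNDC1, another mitophagy receptor, fell by 0.65, while BNIP3L (NIX), a relative of BNIP3, had overlapping groups. BNIP3 has 42 annotated copies, with at most 43 counts in sum in a poly(A) library. STX17, the SNARE of autophagosome fusion, was at 0.14 and did not pass.

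**Figure D2:**
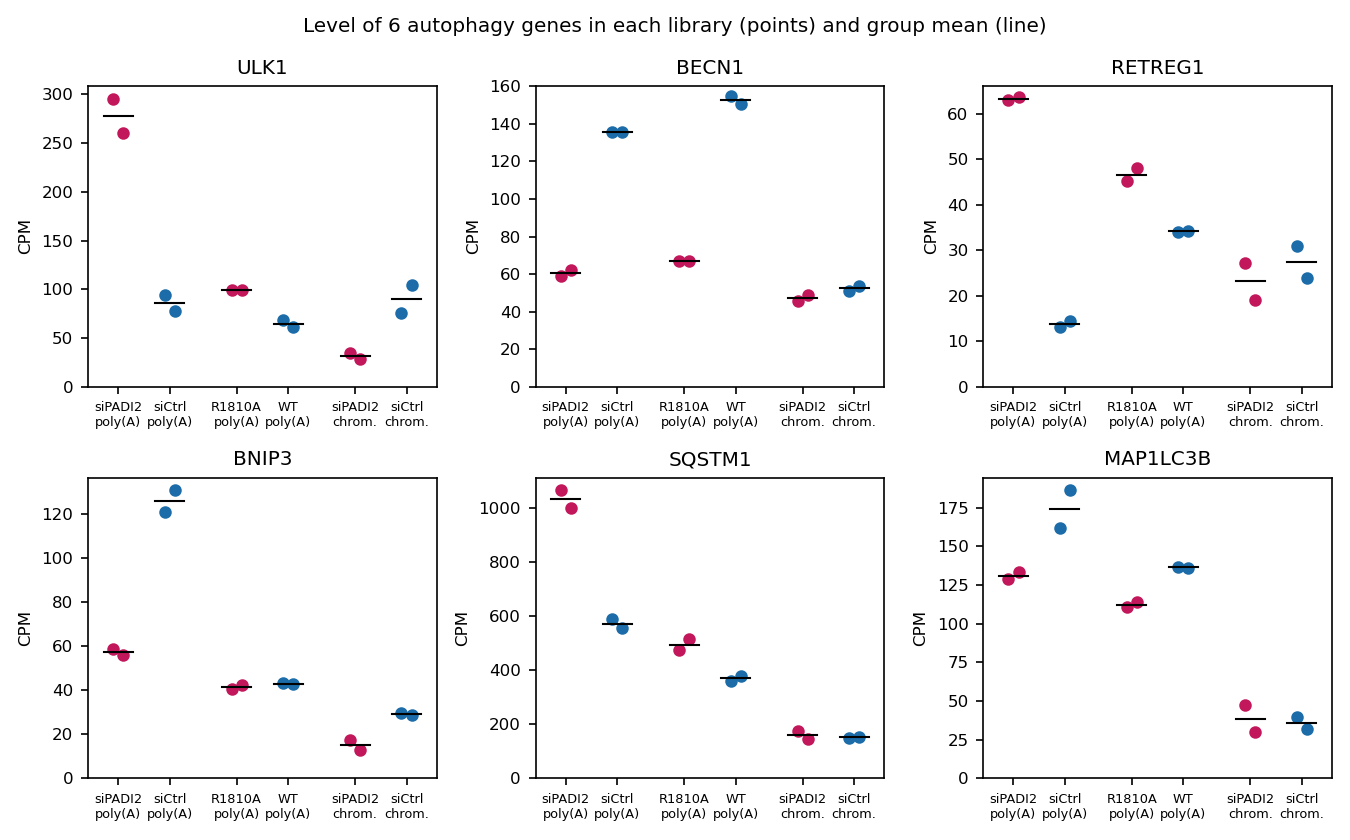
CPM of 6 autophagy genes in each of the 12 libraries (points) and the mean of each group (lines), with each axis starting at 0. In poly(A) RNA, RETREG1 and ULK1 are higher and BECN1 and BNIP3 lower in siPADI2 than in siCtrl, and BECN1 is lower in R1810A than in WT. CPM were scaled within each comparison, so heights are comparable within a pair.

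Per kilobase of gene length, SQSTM1 was the most abundant member in all 4 poly(A) groups, at 134.8 ± 6.24 CPM per kilobase in siPADI2 and 74.7 ± 2.86 in siCtrl, and 64.6 ± 3.65 in R1810A and 48.2 ± 1.59 in WT (SD, n = 2). ATG10 and ATG16L2 were the 2 lowest members in each of these groups, between 1.21 and 2.11 CPM per kilobase. In siCtrl BNIP3 stood second at 59.5 ± 3.26 CPM per kilobase. ULK1 was at 36.5 ± 3.27 CPM per kilobase in siPADI2 and 11.3 in siCtrl.

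In the libraries labelled R1810A, members again moved in both directions, and BECN1 fell by a like amount. There 20 members were higher and 6 lower than in WT, and 16 did not pass, which is 61.9% called beside 46.9% of all 19202 genes tested (22.6% higher and 24.3% lower). The groups did not overlap for 34 of the 42 genes, beside 72.4% of all genes. The median log2 fold change was 0.17 over the members and −0.021 over all genes. BECN1 alone was called with at least 2-fold, beside 10.6% of all genes. It stood at 67.1 and 66.9 CPM in libraries labelled R1810A, against 154.8 and 150.6 CPM in WT libraries, with no overlap (log2 fold change −1.19 ± 0.06 SE, 2.28-fold lower, adjusted p = 5.10e-09).

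Of the 5 genes of the ULK1 complex, the same 4 were called higher as after siPADI2, beside 22.6% of all genes higher. ULK1 was at 98.9 and 99.0 CPM in libraries labelled R1810A and 68.1 and 61.6 CPM in WT libraries (log2 fold change 0.61 ± 0.06 SE, adjusted p = 4.09e-06), and ULK2, ATG13 and RB1CC1 rose by 0.31 to 0.36. In the lipid kinase complex, PIK3C3 rose by 0.40, UVRAG by 0.29 and AMBRA1 by 0.21. AMBRA1 lost its call without WT replicate 1 (0.16, adjusted p = 0.22) and without R1810A replicate 2 (0.14, adjusted p = 0.12). WIPI1 was at 131.2 and 138.7 CPM in libraries labelled R1810A and 90.2 and 91.0 CPM in WT libraries (log2 fold change 0.58 ± 0.06 SE, adjusted p = 4.07e-06). For ULK1 and WIPI1 every library labelled R1810A lay above both WT libraries.

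Of the conjugation enzymes, 6 of 11 were higher and none lower, beside 22.6% and 24.3% of all genes. ATG16L1, the part of the conjugation complex that finds the membrane, was at 66.7 and 69.9 CPM in libraries labelled R1810A and 44.8 and 43.6 CPM in WT libraries (log2 fold change 0.63 ± 0.06 SE, adjusted p = 1.66e-06). ATG5 rose by 0.29 and ATG7 by 0.20, and ATG7 lost its call without WT replicate 1 (0.16, adjusted p = 0.23) or R1810A replicate 2 (0.12, adjusted p = 0.22). The E2-like enzyme ATG3 and the protease ATG4A each rose by 0.26, and ATG3 lost its call without WT replicate 1 (0.23, adjusted p = 0.075). ATG16L2 had wide scatter, at 23.1 and 11.6 CPM in libraries labelled R1810A and 19.4 and 10.5 CPM in WT libraries, and did not pass. Replicate 1 was the higher in both groups, and with a replicate block in the fit ATG16L2 was called.

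The ATG8 genes again split, with MAP1LC3B lower by 0.28 and GABARAPL1 by 0.47 on the log2 scale and GABARAPL2 higher by 0.29. Among the cargo receptors, CALCOCO2 was at 179.8 and 191.4 CPM in libraries labelled R1810A, against 273.6 and 276.7 CPM in WT libraries (log2 fold change −0.57 ± 0.06 SE, adjusted p = 9.38e-06). FUNDC1 fell by 0.25 and ATG9A by 0.24, though ATG9A did not pass without WT replicate 2 (−0.17, adjusted p = 0.062). TAX1BP1, RETREG1 and SQSTM1 rose by 0.49, 0.45 and 0.42, and BNIP3L rose by 0.21, a call lost without WT replicate 1 (0.22, adjusted p = 0.097). RETREG1 was at 45.1 and 48.1 CPM in libraries labelled R1810A and 34.1 and 34.2 CPM in WT libraries. BNIP3 did not pass, at 40.3 and 42.5 CPM in libraries labelled R1810A and 43.1 and 42.9 CPM in WT libraries.

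The siPADI2 and R1810A comparisons share no libraries. Of the members higher in siPADI2 (17), 14 were also higher in R1810A, which is 82.4% of the siPADI2 list and 70.0% of the R1810A list of 20. Of the 9 lower in siPADI2, 6 were lower in R1810A (66.7%), and these 6 were all those lower in R1810A. No member was called in opposite directions. Over the 18260 genes tested in both comparisons the overlap was also high: 51.9% of those higher in siPADI2 were higher in R1810A, and 57.8% of those lower were lower, which is 66.2% and 65.5% of the R1810A lists. The shared lower genes were BECN1, ATG9A, MAP1LC3B, GABARAPL1, CALCOCO2 and FUNDC1. PADI2 RNA was low in siPADI2 and in the libraries labelled R1810A, and its part in this overlap was not tested.

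In a fit of the 8 poly(A) libraries the effects differed for 13 members, with the siPADI2 value above the R1810A value for 8 and below it for 5, beside 26.1% of all 19884 genes (11.8% above and 14.3% below). The differences largest in size were RETREG1 (1.71 ± 0.10 SE on the log2 scale, adjusted p = 5.63e-08), BNIP3 (−1.11 ± 0.09 SE, adjusted p = 1.33e-06) and ULK1 (1.06 ± 0.13 SE, adjusted p = 0.000128). RETREG1 and ULK1 rose in both comparisons, by more with siPADI2. For BNIP3, siPADI2 libraries were lower than siCtrl libraries and the change in R1810A did not pass. ULK2 (0.54), TAX1BP1 (0.44) and ATG4C (0.43) also had higher values after siPADI2, as did SQSTM1 (0.41), ATG14 (0.40) and WIPI2 (0.31). FUNDC1 (−0.43), OPTN (−0.37), BNIP3L (−0.35) and AMBRA1 (−0.28) lay on the other side. Without single libraries the differences of WIPI2, ATG4C, OPTN, BNIP3L, FUNDC1 and AMBRA1 lost their calls, and RETREG1, ULK1, BNIP3, ULK2, TAX1BP1, SQSTM1 and ATG14 kept theirs under all 13 alternatives. The adjusted p without the library reached 0.063 for WIPI2 (R1810A replicate 1), 0.084 for ATG4C (siPADI2 replicate 1) and 0.12 for OPTN (R1810A replicate 2). It reached 0.082 for BNIP3L (R1810A replicate 2), 0.057 for FUNDC1 (siCtrl replicate 2) and 0.35 for AMBRA1 (R1810A replicate 2). The members below numbered 2 without R1810A replicate 2 and 3 without siCtrl or siPADI2 replicate 2. For BECN1 the 2 effects differed by −0.0024 ± 0.09 SE (adjusted p = 0.99). With total counts in place of TMM, the median difference of all genes moved to 0.14, and 15 members then had a higher and 1 a lower value after siPADI2.

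**Figure D3:**
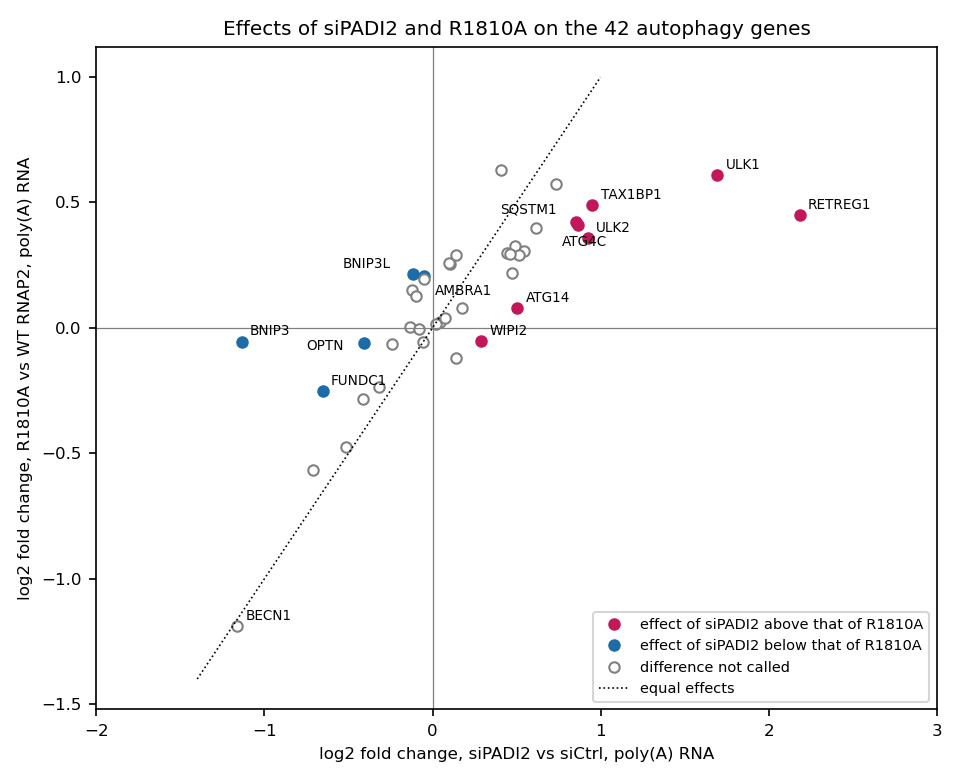
Log2 fold change of the 42 autophagy genes after siPADI2 (horizontal) and in R1810A (vertical), both in poly(A) RNA. Filled points differ between the 2 comparisons at an adjusted p under 0.05. RETREG1 and ULK1 lie far to the right of the dotted line of equal effects, BNIP3 far to its left, and BECN1 on it.

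In RNA bound to chromatin, no member was higher and 9 were lower after siPADI2, with 33 not passing. The share called was 21.4%, beside 32.4% of all 33879 genes tested (20.1% lower and 12.2% higher), and the groups did not overlap for 25 of the 42 genes, beside 66.6% of all genes. The median log2 fold change was −0.058 over the members and 0.028 over all genes. The 9 were ATG9A, ATG4D, ULK1, ATG4B, ATG2A, BNIP3, WIPI2, ATG16L2 and ATG101. The first 5 fell at least 2-fold, beside 20.9% of all genes. DESeq2 called 7 of the 9 lower, and over all genes 858 higher and 3252 lower, against 4140 and 6822 with edgeR. Without siPADI2 replicate 2, 2 members were called higher and 6 lower. Over all genes, 1168 were higher and 3678 lower without siCtrl replicate 5.

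ULK1 was at 35.1 and 28.3 CPM in siPADI2 chromatin libraries, against 76.2 and 104.8 CPM in siCtrl chromatin libraries (log2 fold change −1.51 ± 0.22 SE, adjusted p = 2.72e-10). This is the reverse of its poly(A) change, as was also found for WIPI2 (−0.66) and ATG16L2 (−0.59). The chromatin call of WIPI2 was lost without siCtrl replicate 5 (−0.64, adjusted p = 0.076) and without siPADI2 replicate 1 (−0.57, adjusted p = 0.12). Those of ATG16L2 (−0.49, adjusted p = 0.20) and ATG101 (−0.45, adjusted p = 0.26) were lost without siPADI2 replicate 2, and also without siPADI2 replicate 1 or siCtrl replicate 5. ATG9A, whose count is uncertain because it shares exonic bases with ABCB6, was at 6.74 and 8.15 CPM in siPADI2 and 24.3 and 28.1 CPM in siCtrl (log2 fold change −1.81 ± 0.28 SE, adjusted p = 3.72e-09). ATG4D, a relative of ATG4C, was at 6.03 and 3.90 CPM in siPADI2 and 14.1 and 16.0 CPM in siCtrl (log2 fold change −1.60 ± 0.34 SE, adjusted p = 4.47e-05). Its relative ATG4B fell by 1.22 and ATG2A by 1.16. BNIP3 was at 17.4 and 12.8 CPM in siPADI2 and 29.5 and 28.9 CPM in siCtrl (log2 fold change −0.95 ± 0.24 SE, adjusted p = 0.000557), and lost its call without siPADI2 replicate 2 (adjusted p = 0.063). Its copies had up to 314 counts in sum in a chromatin library, so its chromatin value is uncertain.

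BECN1 was at 45.8 and 48.9 CPM in siPADI2 chromatin libraries and 51.1 and 53.9 CPM in siCtrl chromatin libraries (log2 fold change −0.15 ± 0.20 SE, adjusted p = 0.60). RETREG1 was at 27.3 and 19.1 CPM in siPADI2 and 31.0 and 24.0 CPM in siCtrl, with overlapping groups (log2 fold change −0.24 ± 0.22 SE, adjusted p = 0.42). Of the members called with at least 2-fold in poly(A) RNA, ULK1 and BNIP3 passed here, while BECN1 and RETREG1 did not. SQSTM1 (0.08 ± 0.24), MAP1LC3B (0.11 ± 0.20), ATG5 (0.17 ± 0.25) and ATG7 (−0.16 ± 0.20) did not pass either. MAP1LC3B had 84 to 245 counts in chromatin libraries, so with its copies this value is uncertain. Uncalled members ranged over −0.52 to 0.47 on the log2 scale.

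The chromatin level of many members lay within the upper range of genes with no poly(A) signal. The 3881 genes of at least 1000 bases with no count in any of the 8 poly(A) libraries had a median of 1.71 CPM per kilobase in siPADI2 chromatin and 1.72 in siCtrl chromatin, with 95th percentiles of 6.49 and 6.14. The 42 members had medians of 7.01 in siPADI2 and 7.51 in siCtrl. Above the median of the genes with no poly(A) count lay 39 members in siPADI2 and 42 in siCtrl. Above their 95th percentile lay 24 members in siPADI2 and 27 in siCtrl. ULK1 was at 4.17 CPM per kilobase in siPADI2 and 11.9 in siCtrl, RETREG1 was at 5.09 in siPADI2 and 6.02 in siCtrl, below the percentile in both, and ATG9A at 0.915 in siPADI2 and 3.22 in siCtrl. PADI2 itself was at 1.89 in siPADI2 and 5.61 in siCtrl. Markers nearly absent from poly(A) RNA also had chromatin counts: KRT5, PTPRC and PDGFRB were at 9.23 to 58.9 CPM in chromatin libraries. PDGFRB was called lower in siPADI2 chromatin (log2 fold change −1.85 ± 0.23 SE, adjusted p = 6.42e-14). Of 2561 of the genes without poly(A) counts that could be tested, 486 were lower (18.98%) and 396 higher (15.46%) after siPADI2. Over all genes tested in chromatin RNA, 20.1% were lower and 12.2% higher, and of the 42 members 21.4% were lower and none higher. What the chromatin reads of genes without poly(A) counts are was not tested.

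**Figure D4:**
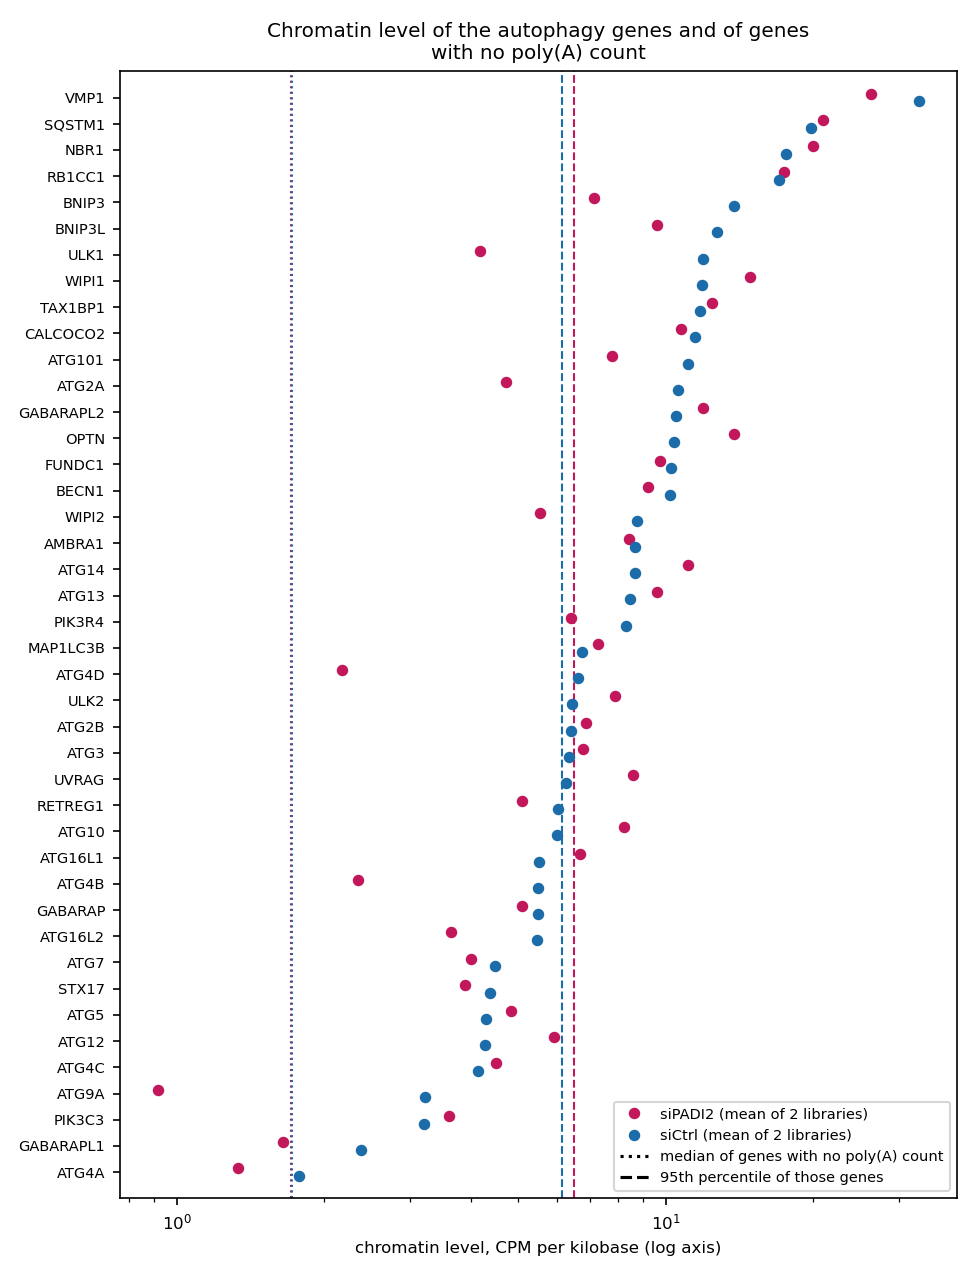
Chromatin level of each autophagy gene in siPADI2 and siCtrl (mean of 2 libraries, CPM per kilobase, log axis), sorted by siCtrl. Dotted and dashed lines give the median and the 95th percentile of 3881 genes with no poly(A) count. In siPADI2 18 members and in siCtrl 15 members lie at or below the dashed line of their group.

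The chromatin effect also moved with base composition. Across the 42 members, Pearson's r between the log2 fold change and the GC content of the transcripts was −0.68, against 0.01 for both poly(A) comparisons, and over 32228 genes it was −0.60. Over 2456 genes with no poly(A) count it was −0.70. These are descriptions across genes, which share libraries and are not independent. The 9 members called lower had 51.4 to 64.8% GC (median 60.2%), against 34.8 to 58.0% (median 44.2%) for the other 33. After a correction for GC in each library, r over the members was 0.25. ULK1 (−0.55 ± 0.19 SE, adjusted p = 0.045), ATG9A (−1.03 ± 0.26 SE) and BNIP3 (−0.83 ± 0.22 SE) kept their calls, and the other 6 did not. With that correction SQSTM1 was called higher (0.77 ± 0.21 SE), and BECN1, PIK3R4, RETREG1, BNIP3L and VMP1 lower. The part of base composition in the chromatin effects was not tested further.

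**Figure D5:**
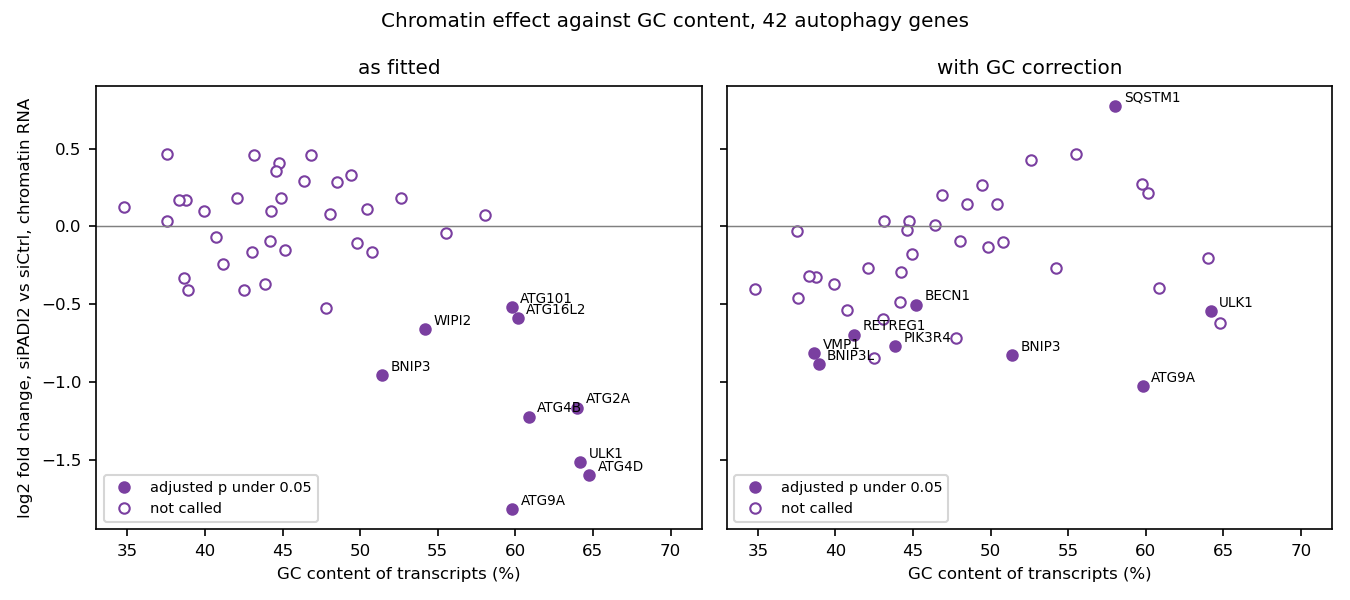
Log2 fold change of the 42 autophagy genes in chromatin RNA against the GC content of their transcripts, as fitted (left) and with a GC correction in each library (right). As fitted, the 9 called genes lie at 51.4% GC or more. After the correction 9 genes are called, of which ULK1, ATG9A and BNIP3 are called in both.

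The difference between the chromatin and the poly(A) effect of siPADI2 was called for 8 members, all lower in chromatin, beside 8.05% of 44615 genes (6.34% lower and 1.71% higher). ULK1 (−3.43 ± 0.39 SE on the log2 scale, adjusted p = 6.38e-15) and RETREG1 (−2.62 ± 0.39 SE, adjusted p = 6.76e-09) had the largest differences. Both genes rose in poly(A) RNA, whereas in chromatin RNA ULK1 fell and RETREG1 did not pass. ATG4D (−1.83), ATG9A (−1.71), ATG2A (−1.42), ATG4B (−1.31), ATG16L2 (−1.27) and WIPI2 (−1.15) were the others. Without siPADI2 poly(A) replicate 1, ATG2A (adjusted p = 0.057), WIPI2 (0.17) and ATG4B (0.099) lost their calls, and without replicate 2 WIPI2 (0.18), ATG4B (0.10) and ATG16L2 (0.28) did. Members lower were 5 without the one or the other of these libraries, 22 without siCtrl poly(A) replicate 2, and 14 without siPADI2 chromatin replicate 1 or siCtrl chromatin replicate 5. Scaling the 8 libraries jointly shifts this difference. The median over all genes was −0.16, against −0.029 with the 2 kinds of RNA scaled separately, where ULK1 was at −3.21. A shift was also seen in simulated data, but there only a small set of genes was given an effect, unlike in these libraries. With that separate scaling, chosen after the data were seen, 12 members were lower and 3 higher in chromatin, beside 13.6% of all genes (8.88% lower and 4.72% higher). The 3 were BECN1 (1.01 ± 0.21 SE, adjusted p = 6.13e-05), OPTN (0.81) and CALCOCO2 (0.62). ULK1 and RETREG1 alone kept their call under all 14 alternatives.

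Across the 3 comparisons, 6 members were called in none of the main fits: PIK3R4, ATG10, ATG12, GABARAP, NBR1 and STX17. With the GC correction PIK3R4 was called in chromatin RNA, and ATG12 after siPADI2 in poly(A) RNA. With total counts ATG10, NBR1 and STX17 were called after siPADI2 in poly(A) RNA, and with a replicate block GABARAP in R1810A. Only ULK1 and ATG9A were called in all 3 comparisons, and the like shares over all genes were not counted. ULK1 was higher in both poly(A) comparisons and lower in chromatin RNA, whereas ATG9A was lower in all 3. Both poly(A) calls of ATG9A were lost with total counts as library sizes. Its level in siPADI2 chromatin, 0.915 CPM per kilobase, was below the median of 1.71 of genes with no poly(A) count. For NBR1, a cargo receptor for ubiquitinated proteins, the values were 409.6 and 404.2 CPM in siPADI2 and 373.7 and 398.6 CPM in siCtrl (log2 fold change 0.08 ± 0.09 SE).

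A further 88 genes of the pathway were counted from 5 lists. In poly(A) RNA after siPADI2, 28 of 85 tested were higher and 29 lower (67.1% called, beside 56.7% of all genes). In R1810A 24 of 85 were higher and 22 lower (54.1%, beside 46.9%), and in chromatin RNA 17 of 87 were lower and none higher (19.5%, beside 32.4%). Their medians were −0.0032, 0.064 and −0.13 on the log2 scale. The fusion genes held the lowest value: SNAP29, the partner of STX17 in the fusion SNARE complex, was at 32.0 and 31.3 CPM in siPADI2 libraries, against 129.3 and 125.8 CPM in siCtrl libraries (log2 fold change −2.01 ± 0.08 SE, adjusted p = 3.67e-22). It also fell by 1.06 in R1810A. In the fusion list 6 of 16 genes were higher and 6 lower after siPADI2 (37.5% each), beside 28.8% and 27.9% of all genes. VPS33A, a subunit of the tethering complex HOPS, was at 0.59 and TECPR1 at 0.69.

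Of the core genes outside the 42, ATG9B, the paralog of ATG9A, was at 3.73 and 3.56 CPM in siPADI2 libraries and 0.936 and 0.724 CPM in siCtrl libraries (log2 fold change 2.19 ± 0.19 SE, adjusted p = 5.75e-13), and rose by 1.21 in R1810A. RUBCN, an inhibitor of the lipid kinase complex, rose by 0.71 after siPADI2 and 0.53 in R1810A. MAP1LC3A was at most 0.337 CPM in any poly(A) library, and its fall of 1.55 after siPADI2 lost its call without siCtrl replicate 1 (adjusted p = 0.28) or siPADI2 replicate 1 (adjusted p = 0.16). Of 17 other selective receptors tested, 9 were lower and 3 higher after siPADI2, beside 27.9% and 28.8% of all genes, with the endoplasmic reticulum receptor TEX264 at −0.86, the kinase TBK1 at −0.82 and CALCOCO1 at 0.75. In R1810A 9 were lower and 4 higher, beside 24.3% and 22.6%, with CCPG1, another receptor of the endoplasmic reticulum, at −0.63 and TBK1 at −0.58.

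Of the mTORC1 and AMPK genes, 9 rose and 9 fell of 31 after siPADI2. DDIT4 (REDD1), an inhibitor of mTORC1, was at 78.1 and 85.2 CPM in siPADI2 libraries, against 193.3 and 173.8 CPM in siCtrl libraries (log2 fold change −1.17 ± 0.09 SE, adjusted p = 7.00e-15), and fell by 0.79 in R1810A. PRKAA2, a catalytic subunit of AMPK, rose by 1.20 and its activating kinase STK11 (LKB1) by 0.62 after siPADI2. In R1810A SESN1, an inhibitor of mTORC1, rose by 0.79 and MTOR fell by 0.54. Of 10 transcription factors, ZKSCAN3, a repressor of autophagy genes, fell by 1.17 after siPADI2 and 0.59 in R1810A, while MITF and FOXO4 rose by 0.91 and 1.08 after siPADI2. In chromatin RNA the genes that fell most were MAP1LC3A (−1.61 ± 0.37 SE), RPTOR (−1.54) and DDIT3 (−1.52). MAP1LC3A was at 2.31 CPM per kilobase in siPADI2 chromatin and 7.07 in siCtrl chromatin. The 95th percentiles of genes with no poly(A) count were 6.49 and 6.14 there. The limits given above for chromatin values, on level and base composition, apply to these genes too.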

How the data were processed

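Each library has 1 table of raw gene counts that the authors deposited. The submitters' processing notes name Trimmomatic, STAR and featureCounts. Per the file headers, featureCounts versions 1.5.1 (poly(A)) and 1.4.6-p2 (chromatin) counted exons of GENCODE 19 genes on hg19 with strand option 2, and no option for multi-mapping reads. The deposited gene length is another value the authors gave, and levels per kilobase use it. The 4 libraries of a comparison were fitted alone with edgeR 4.0.16 (R 4.3.3): TMM, filterByExpr, robust quasi-likelihood F test, Benjamini-Hochberg adjustment over all genes tested, threshold 0.05. The SE is the size of the log2 fold change divided by the square root of F. Differences between effects were interaction contrasts on 8 libraries. CPM use TMM-scaled library sizes. GC came from GENCODE 29 transcripts, matched for 52337 of 57820 genes and all 42 members, and its correction fitted a loess curve per library. Alternatives were DESeq2 1.42.0, other scalings, no filter, the GC correction, left-out libraries, a replicate block and a joint fit. Scripts were tested on simulated data. The 2 libraries of a group differed beyond sampling noise (chi-square per degree of freedom 3.55 to 91.7), so each was counted. Depth, at 2720080 to 7040541 counts per library, limits the chromatin values.

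Members and lists were chosen with earlier results of these data known. Genes named with values were 7 set by name (RETREG1, ULK1, BECN1, ATG5, ATG7, MAP1LC3B and SQSTM1), the members with the largest and smallest called changes in each comparison, members whose effects differed between comparisons, and of each pathway list the called genes with the largest changes. Others were chosen after their values were seen. NCOA4 and PECAM1 had no match by symbol and are not analysed here.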

Additional observations from a re-analysis of the deposited data

Results flagged for a closer look

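For 8 members the effect of siPADI2 in chromatin RNA differed from that in poly(A) RNA in the test of the difference (chromatin minus poly(A), log2 scale, edgeR). The differences were −3.43 for ULK1, −2.62 for RETREG1, −1.83 for ATG4D, −1.71 for ATG9A, −1.42 for ATG2A, −1.31 for ATG4B, −1.27 for ATG16L2 and −1.15 for WIPI2. With each kind of RNA scaled separately these 8 were −3.21, −2.43, −1.63, −1.50, −1.21, −1.10, −1.06 and −0.94, and all stayed called. With the GC correction ULK1 and RETREG1 kept their calls and the other 6 did not. Values of base composition and of genes without poly(A) counts that move with them are in the chromatin results, and their part was not tested. The groups have 2 libraries each, so single libraries were not tested for standing apart.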

How the results depend on the processing

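Of the members called, 23 of 26 after siPADI2, 21 of 26 in libraries labelled R1810A and 2 of 9 in chromatin RNA (ULK1 and ATG9A) kept direction and call under every alternative run.

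With left-out libraries, members called higher ranged over 16 to 18 and lower over 7 to 10 after siPADI2 in poly(A) RNA, 16 to 20 and 5 to 6 in R1810A, and 0 to 2 and 6 to 9 in chromatin RNA. Genes called in chromatin RNA ranged over 4846 to 7988, with 1168 to 2350 higher and 3678 to 5641 lower. For siPADI2 minus R1810A, members higher ranged over 6 to 8 and lower over 2 to 7. For chromatin minus poly(A), members higher ranged over 0 to 5 and lower over 5 to 22, and genes called over 2249 to 6804, with 420 to 2266 higher and 1783 to 6176 lower.

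In chromatin RNA, DESeq2 called 4110 genes (858 higher, 3252 lower) and the GC correction 5121 (1646 higher, 3475 lower), against 10962 (4140 and 6822). Members higher there were 3 with total counts and 1 with the GC correction. For siPADI2 minus R1810A, total counts gave 3870 genes higher and 1822 lower (2343 and 2853 with TMM), and members 15 and 1, while members lower were 2 with no filter and 8 with the GC correction. With total counts siPADI2 in poly(A) RNA gave 7398 genes higher and 3636 lower, against 5395 and 5225.

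For chromatin minus poly(A), genes called were 3592, against 6148 with RLE, 5740 with total counts and 6067 scaled within each kind of RNA, an alternative chosen after seeing the data. Genes higher were 763, against 2693 with DESeq2, 3002 with RLE, 1666 with total counts, 1241 with the GC correction and 2106 scaled within each kind. Members higher were 6 with DESeq2, 6 with RLE, 3 with total counts and 3 scaled within each kind. The causes were not tested.

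Where a sign turned, the turned value did not pass. With the GC correction in chromatin RNA, the sign turned for 2 called members, ATG101 (0.27) and ATG16L2 (0.22), and for 12 uncalled members. Among these 12 were ATG5 (−0.32), AMBRA1 (0.47) and RB1CC1 (−0.46). Of the further pathway genes, ULK3 was at 0.025, VPS18 at 0.20 and TFEB at 0.031. ATG7 after siPADI2 in poly(A) RNA was at 0.13 with total counts, 0.011 with the GC correction and with left-out libraries it ranged over −0.13 to 0.028. In chromatin RNA without siPADI2 replicate 1, ATG5 was at −0.054, MAP1LC3B at −0.27 and SQSTM1 at −0.080, and MAP1LC3B was at −0.078 without siCtrl replicate 5, while the highest values with left-out libraries were 0.37 for ATG5 and 0.41 for MAP1LC3B.

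The replicate numbers are shared by the poly(A) groups, but the labels tie them to no batch. With 2 pairs the correlation of deviations (0.100 for siPADI2, 0.439 for R1810A) cannot settle whether the libraries are paired. With a replicate block, 5830 genes were higher and 5683 lower after siPADI2, with 17 and 9 members. In R1810A it gave 5975 higher and 6607 lower, with 23 and 7 members. The members gained in R1810A were ATG4B, ATG16L2, GABARAP and STX17, and none was lost. No paired analysis was possible for chromatin RNA because its groups share only 1 number.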

Other observations

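The control groups of the poly(A) experiments had different levels of some members. BNIP3 was at 120.8 and 130.6 CPM in siCtrl libraries and 43.1 and 42.9 CPM in WT libraries. RETREG1 was at 13.2 and 14.5 CPM in siCtrl libraries and 34.1 and 34.2 CPM in WT libraries. The sets were scaled separately and come from different experiments, one of them in alpha-amanitin, and the levels were not tested against each other.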
